A study of Mus musculus with 24 samples.

Results

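The rows described here are those of the immunoglobulin heavy, kappa and lambda chain genes in bulk RNA sequencing of mouse memory B cells. They were chosen by gene symbol alone: numbered heavy chain V, D and J genes, the heavy chain constant genes, Igkc, numbered kappa V and J genes, and numbered lambda V, J and C genes. The symbols matched 73 of the 18470 rows in the count table. These were 54 heavy chain V rows, 12 kappa V rows, 2 lambda V rows, 2 lambda J rows, the lambda constant rows Iglc1 and Iglc2, and 1 heavy chain constant row, Ighg3. Of the 73 rows, 31 had at least 1 count and 42 had none in any library.

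The cells, called csMBC in the labels, came from mice given intranasal house dust mite extract and rechallenged with it 6 weeks later. There were 24 libraries in 6 groups of 4: circulating cells, lung CCR6-CD69- cells and lung CCR6+CD69+ cells, each from mice labelled WT (SCAP +/+ hCD20-TamCre) and SCAP cKO (SCAP fl/fl hCD20-TamCre). All groups thus carried the Cre, by its name tamoxifen-dependent and driven by the promoter of human CD20, a B cell gene. In the cKO mice SCAP, the escort protein of the SREBP transcription factors, was deleted before the recall exposure. Lung is the labelled source of every library, circulating cells included, each group had 2 libraries in each of 2 labelled batches, and nothing states that replicates were separate animals, so p-values measure the spread between these libraries.

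An antibody is built from paired heavy and light chains. Each B cell joins V, (D) and J segments into its own heavy chain and its own kappa or lambda light chain, so that cells of a clone use the same V genes. The constant gene sets the class of the antibody: Ighg3 encodes the constant region of IgG3, while Iglc1 and Iglc2 encode lambda light chain constant regions. Memory B cells carry the receptor on their surface, and plasma cells transcribe the same genes at far higher levels for secretion.

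The rows in hand can be told apart by sequence to different degrees. All sequences below are from GENCODE M21 (GRCm38), in which all 73 rows were found by name; the counts refer to another build. The heavy chain genes lie on mouse chromosome 12, the kappa genes on chromosome 6 and the lambda genes on chromosome 16. The first coding exon of Ighg3 is shown 5′ to 3′, with capitals at the 61 of 291 bases that differ from Ighg1, the closest to it in this exon of Ighg1, Ighg2b and Ighg2c (identity 79.0%).
Ighg3: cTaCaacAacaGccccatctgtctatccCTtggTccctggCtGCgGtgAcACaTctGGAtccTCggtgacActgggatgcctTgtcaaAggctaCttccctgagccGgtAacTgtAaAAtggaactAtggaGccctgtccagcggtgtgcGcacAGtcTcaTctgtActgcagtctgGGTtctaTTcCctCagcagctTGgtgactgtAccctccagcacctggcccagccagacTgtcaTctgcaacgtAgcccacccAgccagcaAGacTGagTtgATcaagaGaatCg

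The coding sequences of Iglc1 and Iglc2 are shown because the 2 rows behaved differently over the libraries. Bases 1 to 300 of each are printed, and capitals mark bases that differ or have no aligned partner (identity 74.8% over 313 aligned bases). Iglc2 is far closer to Iglc3, a row not analysed here (identity 96.5%).
Iglc1: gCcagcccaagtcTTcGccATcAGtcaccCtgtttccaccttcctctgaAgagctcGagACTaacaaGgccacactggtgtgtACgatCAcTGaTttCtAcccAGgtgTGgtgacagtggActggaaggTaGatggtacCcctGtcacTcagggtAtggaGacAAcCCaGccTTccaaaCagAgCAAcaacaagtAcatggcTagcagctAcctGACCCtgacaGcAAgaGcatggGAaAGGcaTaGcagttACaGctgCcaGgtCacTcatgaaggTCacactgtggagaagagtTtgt
Iglc2: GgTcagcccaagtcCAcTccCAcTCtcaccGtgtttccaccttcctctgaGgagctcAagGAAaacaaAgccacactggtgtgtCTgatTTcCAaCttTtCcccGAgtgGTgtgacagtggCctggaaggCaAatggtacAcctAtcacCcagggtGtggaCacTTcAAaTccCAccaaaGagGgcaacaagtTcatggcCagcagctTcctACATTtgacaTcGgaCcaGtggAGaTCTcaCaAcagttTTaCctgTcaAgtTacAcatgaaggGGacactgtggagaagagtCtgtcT

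Ighv1-64 and Ighv1-19 are the V rows with the most counts. Their coding sequences have the same length of 351 bases and differ at 57 of them (identity 83.8%). Bases 1 to 300 are printed, with capitals where they differ.
Ighv1-64: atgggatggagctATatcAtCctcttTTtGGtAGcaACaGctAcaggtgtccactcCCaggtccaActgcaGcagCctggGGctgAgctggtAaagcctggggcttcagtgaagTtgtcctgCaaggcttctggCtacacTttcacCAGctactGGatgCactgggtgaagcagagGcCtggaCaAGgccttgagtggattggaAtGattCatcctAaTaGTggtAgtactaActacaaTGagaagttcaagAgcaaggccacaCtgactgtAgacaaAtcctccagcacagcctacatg
Ighv1-19: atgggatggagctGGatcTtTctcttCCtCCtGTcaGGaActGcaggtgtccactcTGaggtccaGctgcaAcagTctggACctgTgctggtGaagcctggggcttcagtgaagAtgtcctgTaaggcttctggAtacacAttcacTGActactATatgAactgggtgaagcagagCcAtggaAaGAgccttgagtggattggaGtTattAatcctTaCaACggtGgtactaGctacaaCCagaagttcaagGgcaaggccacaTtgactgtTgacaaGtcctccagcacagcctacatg

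Sequence shared with other immunoglobulin genes limits some rows. Of all 50-base windows in the annotated transcripts, 1.58% of those of Ighg3 also occurred in another immunoglobulin gene, none of Iglc1 and 7.65% of Iglc2 (all with Iglc3). The share was 33.4% for Ighv1-64, 22.2% for Ighv1-19, 57.6% for Ighv1-53, 49.0% for Ighv1-26 and 50.9% for Igkv1-110. How reads that match several genes were counted, and whether strand was used, is not given in the sources used here, so counts of these V rows are uncertain.

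Rows for Ighm, Ighd, Igha, Ighe, Ighg1, Ighg2b, Ighg2c, Igkc, Iglc3 and Iglv1 are not analysed here. With 1 heavy chain constant row and no kappa constant row, isotype shares and the kappa to lambda ratio were not computed. What follows is the level of each row and the use of V rows among those in hand.

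The 73 rows held 40707 counts in all. They made up between 0.0159% and 0.261% of a library's counts. The mean share was 0.150% ± 0.0880 (SD, n = 4) in WT lung CCR6-CD69- cells and 0.0439% ± 0.0232 in WT lung CCR6+CD69+ cells. In cKO mice these means were 0.0852% ± 0.0556 and 0.0406% ± 0.0101. Circulating cells averaged 0.0556% ± 0.0550 in WT and 0.0349% ± 0.0197 in cKO mice. The ranges of the CCR6-CD69- and CCR6+CD69+ libraries overlapped in both genotypes, and the totals cover the rows in hand rather than all antibody transcripts.

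Library totals ran from 129025 to 8566243 counts, and 3 counts, the limit that a count of 0 allows, correspond to 0.350 to 23.3 CPM (counts per 1e6 counts of a library; counting error only). The 2 libraries with under 500000 counts were cKO lung CCR6-CD69- replicate 4 and WT circulating replicate 2. Summed T and NK cell markers (7 of 9 with a row) reached 263 CPM in lung libraries and ran from 1204 to 3234 CPM in circulating ones. Macrophage and monocyte markers (all 8 with a row) reached 35900 CPM in WT lung CCR6-CD69- replicate 2 and 47900 CPM in cKO lung CCR6-CD69- replicate 1. Ms4a1, which encodes the B cell surface protein CD20, was present in every library, at 387 to 1718 CPM. In bulk samples, fewer cells of a type and less RNA per cell cannot be told apart.

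Ighg3 was the immunoglobulin row that separated the lung populations in both genotypes. By mean CPM it was higher in lung CCR6-CD69- cells than in lung CCR6+CD69+ and circulating cells in WT and in cKO mice. In WT mice the 4 CCR6-CD69- libraries had 431, 150.0, 380 and 914 CPM (mean 469 ± 321, SD, n = 4). The WT CCR6+CD69+ libraries had 48.9, 70.2, 26.5 and 40.5 CPM (46.5 ± 18.3). The lowest WT CCR6-CD69- library thus lay above the highest CCR6+CD69+ library.

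In cKO mice the CCR6-CD69- libraries had 101.91, 270.0, 637 and 1248 CPM (564 ± 508). The cKO CCR6+CD69+ libraries had 85.4, 52.8, 101.85 and 36.2 CPM (69.1 ± 29.9). These groups did not overlap either, but replicate 1 of the first and replicate 3 of the second were almost equal. The highest value, 1248 CPM, rests on 161 counts in the smallest library.

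Circulating cells were low and spread widely. The WT circulating libraries had 18.6, 0, 63.7 and 119 CPM of Ighg3 (50.3 ± 53.0), the 0 coming from a library whose limit is 8.41 CPM. The cKO circulating libraries had 208, 32.4, 91.4 and 26.3 CPM (89.4 ± 84.1). They overlapped the CCR6+CD69+ libraries in both genotypes.

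**Figure D1:**
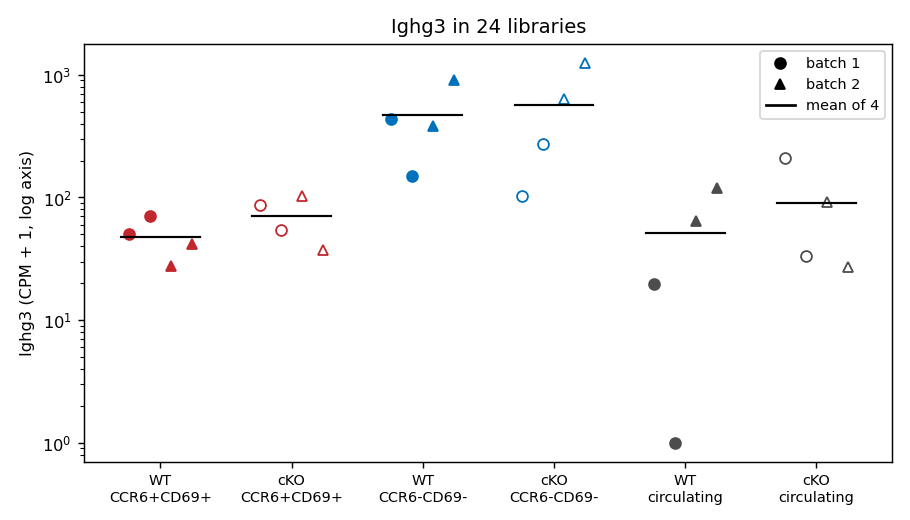
Ighg3 level in each of the 24 libraries by group, as CPM + 1 on a log axis; circles are batch 1, triangles batch 2, filled symbols WT, open symbols cKO, and bars the mean of 4 libraries. The 8 lung CCR6-CD69- libraries lie between 101.91 and 1248 CPM, above the 8 lung CCR6+CD69+ libraries at 26.5 to 101.85 CPM.

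Within a single genotype the differences did not pass the test. Counts were tested with edgeR's quasi-likelihood test on all 24 libraries, with terms for group and batch, and p-values took the Benjamini-Hochberg adjustment over all 6779 tested genes (threshold 0.05). For CCR6+CD69+ against CCR6-CD69- cells the log2 fold change of Ighg3 was -3.19 ± 0.89 (SE; adjusted p = 0.154) in WT and -2.85 ± 0.89 (adjusted p = 0.190) in cKO mice. For CCR6-CD69- against circulating cells it was 3.31 ± 0.89 (adjusted p = 0.136) in WT and 1.98 ± 0.89 (adjusted p = 0.301) in cKO mice. The last value ran from 1.23 without cKO CCR6-CD69- replicate 4 to 3.41 without cKO circulating replicate 1, and was 0.47 in batch 1 and 4.20 in batch 2. With DESeq2 all 4 passed, with adjusted p between 0.00385 and 0.0354.

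Averaged over both genotypes, a comparison added after the data were seen, Ighg3 was lower in CCR6+CD69+ than in CCR6-CD69- cells by a log2 fold change of -3.02 ± 0.64 (SE; edgeR adjusted p = 0.00250). It was higher in CCR6-CD69- than in circulating cells by 2.64 ± 0.62 (edgeR adjusted p = 0.0110). Of the 73 rows, 11 passed the filter on low counts. Ighg3 was the 1 of these 11 called (past the threshold) in each of these comparisons, against a background of 1.36% of all tested genes called lower in the first and 0.561% called higher in the second. Ighg3 was also the 1 row of 11 whose CCR6+CD69+ and CCR6-CD69- libraries did not overlap over both genotypes (0.339% of all tested genes did not). The nearest libraries of the 2 populations, both cKO, were almost equal (101.85 and 101.91 CPM). None of the 11 was free of overlap between CCR6+CD69+ and circulating cells (1.67% of all genes) or between CCR6-CD69- and circulating cells (0.236%). CCR6+CD69+ and circulating cells did not differ past the threshold (log2 fold change -0.38 ± 0.58, edgeR adjusted p = 0.826), with no immunoglobulin row called against 4.87% of all genes.

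An exact permutation test of log2(CPM + 1) within genotype and batch, added after the data were seen, gave the same directions for Ighg3. It was run on the same libraries, for Ighg3 alone and in the averaged comparisons where edgeR had called it. Its p-values are unadjusted and are not independent support. The mean difference between CCR6+CD69+ and CCR6-CD69- cells was -2.84 (two-sided exact p = 0.00154, the smallest that 1296 arrangements can give), and all 4 combinations of genotype and batch were negative. For CCR6-CD69- against circulating cells it was 3.44 (two-sided exact p = 0.00309), positive in all 4 and from 1.00 to 5.85. The 5.85, in WT batch 1, includes WT circulating replicate 2, entered as 0 CPM though its limit is 8.41 CPM. The size of that mean difference thus depends on the pseudocount of 1. Within batches the edgeR fold change of the first comparison was -1.86 in batch 1 (adjusted p = 0.394) and -4.05 in batch 2 (adjusted p = 0.0225). That of the second was 2.52 in batch 1 (adjusted p = 0.180) and 3.52 in batch 2 (adjusted p = 0.0493). The direction held in each batch, and the threshold was passed in batch 2 alone.

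The genotype made no difference to Ighg3 that passed the threshold. For cKO against WT the edgeR adjusted p was 1 in CCR6+CD69+, 0.998 in CCR6-CD69- and 0.549 in circulating cells. Averaged over the 3 populations the log2 fold change was 0.87 ± 0.48 (edgeR adjusted p = 0.737). The contrast between the lung populations also did not differ between genotypes past the threshold (difference 0.35 ± 1.15 on the log2 scale, edgeR adjusted p = 1), and its sign changed with the scaling (-0.28 with relative log expression factors).

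Genes that work with immunoglobulin were read beside it. Of 62 such genes listed, 41 had a row and 40 were tested; Cd79a, Cd79b, Pou2af1, Mzb1, Xbp1 and Prdm1 are not analysed here. Between CCR6+CD69+ and CCR6-CD69- cells over both genotypes, 3 of the 8 tested assembly and secretion genes were called lower, where 1.36% of all tested genes were. These were Jchain, which links antibody units in IgM and IgA, the plasma cell surface proteoglycan Sdc1, and the endoplasmic reticulum chaperone Hsp90b1. The log2 fold changes were -4.54 for Sdc1 (edgeR adjusted p = 0.0410) and -1.08 for Hsp90b1 (edgeR adjusted p = 0.00896). Dntt, which adds bases at V(D)J joints, was lower too, 1 of the 2 tested genes of V(D)J joining (-6.01, edgeR adjusted p = 0.00113). Some markers of other cell types moved with these genes and others moved the other way. Lower in CCR6+CD69+ cells were the plasmacytoid dendritic cell marker Ccr9 (-7.12, edgeR adjusted p = 0.00212), the T cell marker Cd4 (-3.65, edgeR adjusted p = 0.00148) and the macrophage marker Cd68 (-2.85, edgeR adjusted p = 0.0350), 1 of 3, 1 of 7 and 1 of 7 tested markers of their lists. All 7 tested macrophage and monocyte markers had negative fold changes. The 4 tested granulocyte markers all had positive fold changes (median log2 fold change 2.7), and none was called. Tcf4 (0.27) of the plasmacytoid dendritic cell list and Nkg7 (0.71) of the T and NK cell list were also positive. The part of other cell types in the differences of Ighg3, Jchain and Dntt was not tested. None of the 4 receptor partners, 7 Fc and transport receptors, 9 switching and mutation genes or 10 transcription regulators was called. With so few of all genes called, nothing is read from this in lists of that size. Against circulating cells, CCR6+CD69+ cells had 2 of the 40 listed genes higher (Fcrl5 and Ms4a1) and 7 lower, where 4.87% of all genes were called in either direction. CCR6-CD69- cells had 3 lower (Irf8, Rag1 and Spib), where 1.00% of all genes were called lower. The sum of the plasmacytoid dendritic cell markers Ccr9, Tcf4 and Irf8 (3 of 5 with a row) ran from 4302 to 6762 CPM in circulating, 1828 to 5289 in CCR6-CD69- and 1339 to 2391 in CCR6+CD69+ libraries. Irf8 is on both lists. Between CCR6-CD69- and circulating cells Irf8 was the 1 of these 3 markers called. Ccr9 was nearly unchanged there (log2 fold change -0.03, edgeR adjusted p = 0.997). The part of the plasmacytoid dendritic cell signal and of the T and NK cell signal of circulating libraries was not tested.

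Jchain did not share the Ighg3 pattern in circulating cells. Between CCR6+CD69+ and CCR6-CD69- cells it was lower by a log2 fold change of -3.11 ± 0.43 (SE; edgeR adjusted p = 5.08e-06), close in size to Ighg3. Between CCR6-CD69- and circulating cells its log2 fold change was 0.26 ± 0.40 (edgeR adjusted p = 0.826), where that of Ighg3 was 2.64. The WT circulating libraries had 1186, 824, 1983 and 2597 CPM of Jchain with at most 119 CPM of Ighg3. The summed plasma cell markers in hand (Jchain and Sdc1, 2 of 6) ran from 88.7 to 279 CPM in WT CCR6+CD69+, 338 to 4912 in WT CCR6-CD69- and 824 to 2641 in WT circulating libraries. In cKO mice the ranges were 85.1 to 163, 372 to 1426 and 317 to 1044 CPM. The part that plasma cells among the sorted cells had in the Ighg3 difference was not tested.

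**Figure D2:**
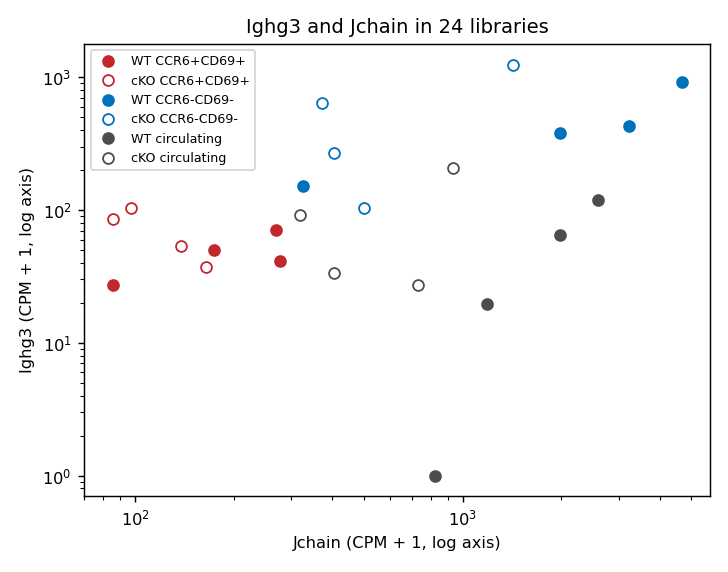
Ighg3 against Jchain in the 24 libraries, each as CPM + 1 on a log axis; red is lung CCR6+CD69+, blue lung CCR6-CD69-, grey circulating, filled WT and open cKO. Lung CCR6+CD69+ libraries have at most 275 CPM of Jchain and 101.85 CPM of Ighg3. Lung CCR6-CD69- libraries have 325 to 4677 CPM of Jchain and 101.91 to 1248 CPM of Ighg3. Circulating libraries have 317 to 2597 CPM of Jchain with 0 to 208 CPM of Ighg3.

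Without the 2 libraries highest in the macrophage gene Chil3, the averaged Ighg3 fold changes were -3.47 (edgeR adjusted p = 0.000798) and 3.04 (edgeR adjusted p = 0.00451). Without the 2 libraries under 500000 counts they were -2.82 (edgeR adjusted p = 0.000545) and 2.15 (edgeR adjusted p = 0.0218). Both comparisons thus stayed past the threshold when these libraries were left out.

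The lambda constant rows differed from Ighg3 and from each other. Iglc2 had counts in 24 of 24 libraries. The WT libraries had 262, 322, 47.1 and 133 CPM of Iglc2 in CCR6+CD69+ cells, and those of CCR6-CD69- cells had 325, 273, 173 and 291 CPM. The WT circulating libraries had 148, 81.3, 37.3 and 79.6 CPM. In WT mice every CCR6-CD69- library lay above every circulating library, and the CCR6+CD69+ libraries overlapped both.

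In cKO mice the 3 populations overlapped for Iglc2. The CCR6+CD69+ libraries had 309, 236, 164 and 113 CPM and the CCR6-CD69- libraries 111, 98.1, 54.9 and 357 CPM. The circulating libraries had 44.4, 174, 126 and 0.478 CPM, the last being 1 count. No comparison of Iglc2 between populations or genotypes passed the threshold in edgeR.

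Iglc1 was unevenly present, and its level went with the labelled batch. Counts were found in 10 of 12 libraries of batch 1 and 4 of 12 of batch 2. The highest level was 220 CPM in batch 1 and 7.10 CPM in batch 2. The 220 CPM came from WT CCR6+CD69+ replicate 1, the deepest library, in which Iglc1 was 45.6% of the lambda constant counts (95% Clopper-Pearson interval 44.1 to 47.2). The next highest libraries were WT CCR6-CD69- replicate 1 with 50.3 CPM and WT CCR6+CD69+ replicate 2 with 23.8 CPM.

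Between the batches, edgeR called 3 of the 11 tested immunoglobulin rows lower in batch 2, against 6.99% of all tested genes lower. They were Iglc1 (log2 fold change -5.63, adjusted p = 0.00342), the lambda V row Iglv2 (-4.36, adjusted p = 0.0157) and the heavy V row Ighv1-53 (-4.25, adjusted p = 0.0321). Iglc2 (-1.08, adjusted p = 0.217) and Ighg3 (0.31, adjusted p = 0.812) did not pass. The libraries of a batch share whatever else differed between batches, and these cannot be told apart. Leaving out 1 library at a time gave 2 to 5 called rows, with Iglc1 called each time, Iglv2 lost without WT CCR6-CD69- replicate 1, and Ighv1-53 lost without any of several libraries. The count was 5 without replicate 2 of any WT group, cKO CCR6+CD69+ replicate 1, cKO CCR6-CD69- replicate 4 or cKO circulating replicate 2, and 6 without the 2 libraries under 500000 counts.

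**Figure D3:**
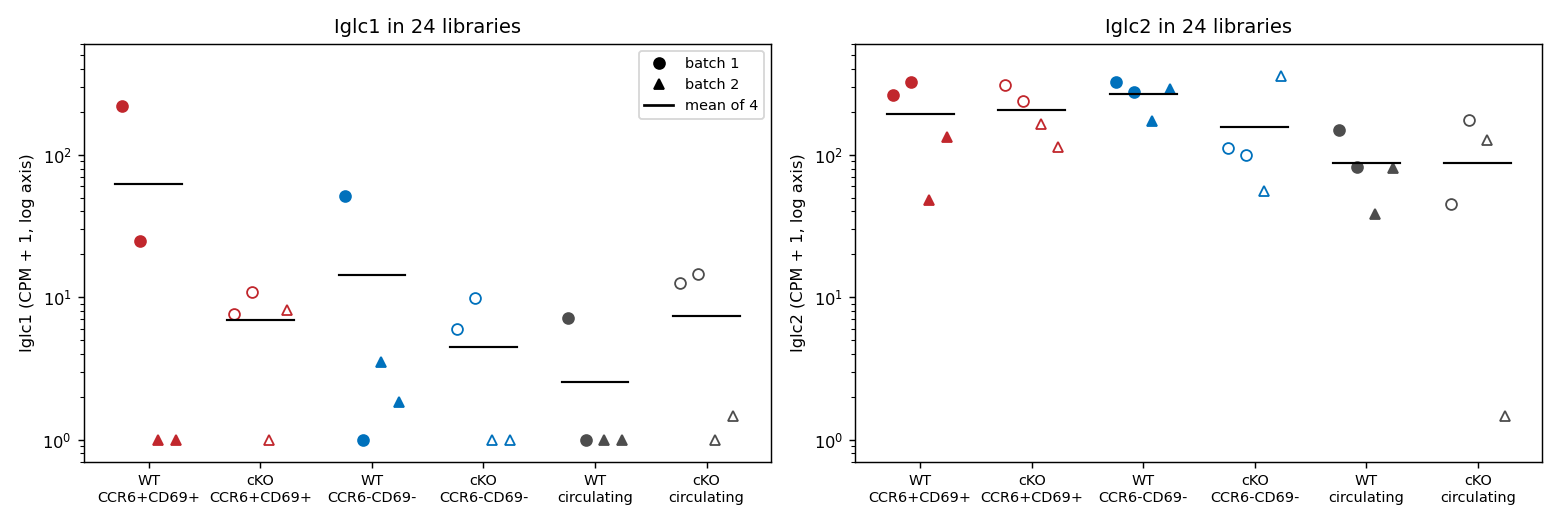
Iglc1 (left) and Iglc2 (right) in each library by group, as CPM + 1 on a log axis; circles are batch 1, triangles batch 2, filled symbols WT, open symbols cKO, and bars the mean of 4 libraries. Iglc1 reaches 220 CPM in batch 1 and 7.10 CPM in batch 2, while Iglc2 has counts in every library.

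The lambda V rows were sparse. Iglv2 was highest in WT CCR6-CD69- replicate 1 with 167 CPM, followed by WT circulating replicate 2 with 58.9 CPM, WT CCR6+CD69+ replicate 1 with 20.7 CPM and WT circulating replicate 3 with 16.6 CPM. In the cKO libraries Iglv2 did not exceed 4.18 CPM. Averaged over the populations, cKO against WT gave an adjusted p of 0.141 for Iglv2 in edgeR, and DESeq2 called it. Iglv3 was highest in the same WT CCR6-CD69- library, with 61.6 CPM, and did not pass the filter on low counts. The lambda J rows had none. Iglv2 is 96.9% identical in coding sequence to Iglv1, a row not analysed here, and 21.1% of its 50-base windows were shared.

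Heavy chain V counts were concentrated in a few rows. Of the 54 heavy V rows, 22 had counts, 12222 in all. Ighv1-64 held 41.8% of these counts and Ighv1-19 held 36.1%, together 77.9%. Averaged over the 20 libraries with at least 50 heavy V counts, their shares were 33.1% and 35.0%, followed by Ighv1-26 (8.42%), Ighv1-53 (5.49%) and Ighv10-1 (3.68%). Shares are of counts in the rows in hand, not adjusted for length. GENCODE M21 lists 183 heavy V genes, pseudogenes included, whose names fit the same pattern, so the shares do not describe the whole repertoire.

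The most counted heavy V row was Ighv1-64 in 8 of the 20 libraries and Ighv1-19 in 8. Ighv1-53 led in WT CCR6+CD69+ replicate 1 and cKO CCR6-CD69- replicate 2, Ighv6-3 in cKO CCR6-CD69- replicate 1, and Ighv1-26 in cKO circulating replicate 4. In the last, Ighv1-26 held all 160 heavy V counts (95% Clopper-Pearson interval of its share 97.7 to 100%). The most counted row held 27.3% to 100% of a library's heavy V counts. Different libraries of the same group often led with different rows: the leading row in the 3 cKO CCR6-CD69- libraries with enough counts was Ighv6-3, Ighv1-53 and Ighv1-19.

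**Figure D4:**
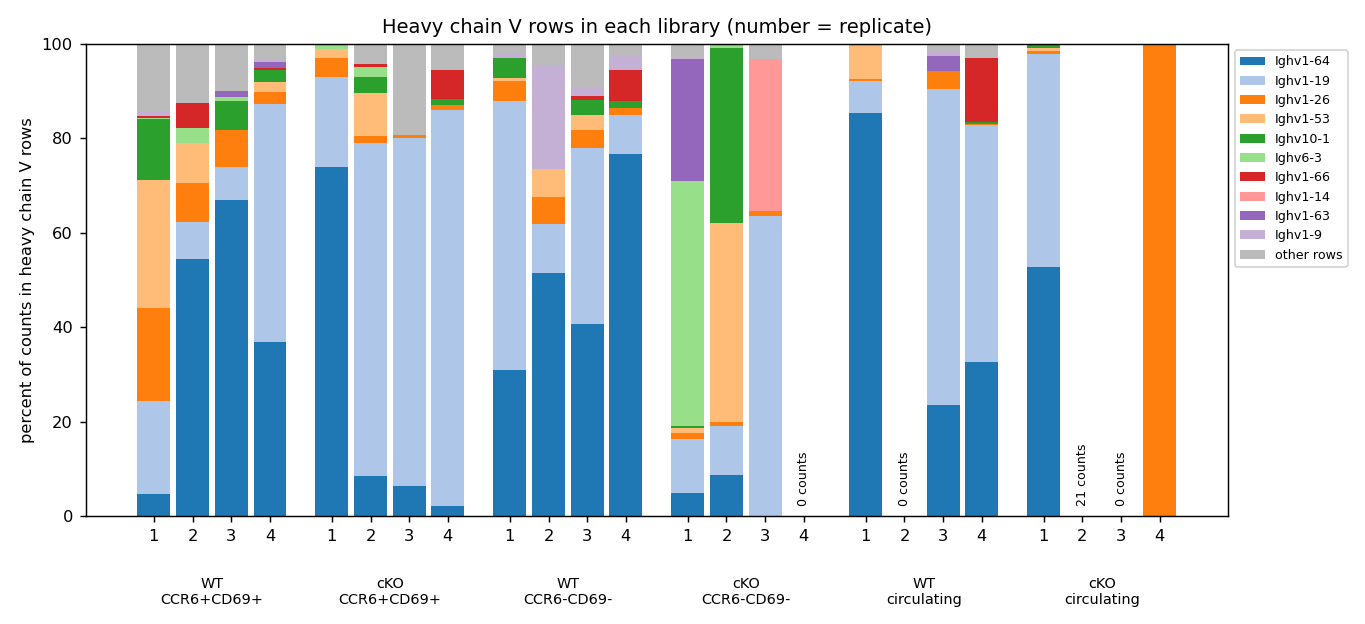
Share of each heavy chain V row in the heavy V counts of each library, as stacked bars in percent, with the replicate number below each bar; 4 libraries with under 50 such counts show their count and no bar. Ighv1-64 and Ighv1-19 lead in 8 bars each, and the bars of every group include at least 2 different leading rows.

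The number of V rows in effective use, the exponential of the Shannon entropy of the shares, ran from 1 to 7.22 with a median of 3.08. WT CCR6+CD69+ libraries had 4.74 ± 1.76 (SD, n = 4; range 3.46 to 7.22) and cKO CCR6+CD69+ libraries 2.37 ± 0.54 (n = 4; range 1.98 to 3.17). These ranges did not overlap. The heavy V counts behind them were 230 to 571 and 125 to 485, and the difference was not tested. WT CCR6-CD69- libraries had 3.52 ± 0.86 (n = 4) and cKO CCR6-CD69- libraries 3.26 ± 0.87 (n = 3). WT circulating libraries had 2.48 ± 0.69 (n = 3, range 1.74 to 3.10), and they too lay below every WT CCR6+CD69+ library. The 2 cKO circulating libraries with enough counts had 1 and 2.25.

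The median overlap in V row use was smaller for pairs of libraries across genotypes than within them. The overlap of 2 libraries, the sum over rows of the smaller share, had a median of 25.7% over 99 pairs of different genotype (range 0.0786 to 84.0%). Pairs of the same genotype with the same replicate number had a median of 44.0% (16 pairs, 1.03 to 85.7%), and those with different numbers 44.0% (75 pairs, 0.606 to 87.8%). The ranges overlapped almost fully. Of the 20 libraries with a same-numbered partner, 2 were most similar to one. Pairs share libraries, so these are descriptions.

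Ighv1-64 was low in cKO lung CCR6-CD69- cells. The WT CCR6-CD69- libraries had 150, 103, 139 and 842 CPM of Ighv1-64. The cKO CCR6-CD69- libraries had 1.94, 8.42, 0 and 0 CPM. The groups did not overlap, the lowest WT library being far above the highest cKO library. The log2 fold change was -7.02 ± 2.32 (SE), which did not pass the threshold in edgeR (adjusted p = 0.610), and passed when no filter on low counts was applied (adjusted p = 0.00500).

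In the other populations Ighv1-64 overlapped between genotypes. The WT CCR6+CD69+ libraries had 3.15, 43.6, 44.8 and 61.8 CPM and the cKO ones 72.9, 2.87, 3.84 and 3.55 CPM. The WT circulating libraries had 77.3, 0, 30.0 and 359 CPM and the cKO ones 191, 5.22, 0 and 0 CPM. In both cKO groups replicate 1 carried nearly all of the signal. Over all populations, cKO against WT gave an adjusted p of 0.573 for Ighv1-64 in edgeR, and batch 2 alone called it.

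Ighv1-9 and Ighv1-26 also did not overlap between genotypes in CCR6-CD69- cells, where 3 of the 11 tested rows, Ighv1-64 among them, did not overlap (5.35% of all tested genes did not). Nothing is read from that count, because Ighv1-9 exceeded 1.22 CPM in no library outside WT CCR6-CD69- and so passed the filter on low counts through the group in which it was high. Ighv1-9 had 4.44, 44.1, 6.34 and 34.4 CPM in WT and 0.215, 0, 0 and 0 CPM in cKO libraries. Ighv1-26 had 19.8, 11.8, 13.3 and 14.7 CPM in WT and 0.431, 0.842, 1.50 and 0 CPM in cKO libraries. Neither passed the threshold in edgeR (adjusted p = 0.610 and 0.665). Of the cKO libraries, replicate 4 had 129025 counts in all and a limit of 23.3 CPM, above every WT level of Ighv1-26 and above 2 of the 4 WT levels of Ighv1-9, so lower levels there were not detectable.

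In CCR6+CD69+ cells 1 row, Ighv1-26, was lower in every cKO library than in any WT library (3.57% of all tested genes did not overlap). Its WT levels were 13.1, 6.47, 5.24 and 4.34 CPM and its cKO levels 3.94, 0.478, 0.480 and 1.78 CPM. No row was separated by genotype in circulating cells (2.40% of all tested genes were), where Ighv1-26 was highest in cKO replicate 4 with 76.5 CPM.

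Ighv1-19 had no group of its own. The WT libraries had 13.1, 6.28, 4.66 and 84.6 CPM in CCR6+CD69+ cells, then 276, 20.6, 127 and 90.9 CPM in CCR6-CD69- cells, and 6.19, 0, 86.0 and 553 CPM in circulating cells. The cKO libraries had 18.7, 24.2, 44.2 and 145 CPM, 4.52, 10.1, 104 and 0 CPM, and 163, 5.22, 0 and 0 CPM. High libraries occurred in each population and in both genotypes. Ighv1-53, with at most 18.2 CPM elsewhere, reached 41.3 CPM in cKO CCR6-CD69- replicate 2, where Ighv10-1 also had its highest level, 36.2 CPM.

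Kappa V counts were held mostly by Igkv1-110. Of the 12 kappa V rows, 4 had counts, 4290 in all, and Igkv1-110 held 87.8% of them, Igkv17-121 6.53%, Igkv17-127 5.38% and Igkv1-122 0.280%. GENCODE M21 lists 160 kappa V genes, pseudogenes included, whose names fit the pattern, so these shares cover a small part of the kappa genes. Igkv1-110 was the most counted kappa V row in 14 of the 15 libraries with at least 50 such counts. The exception was cKO CCR6-CD69- replicate 1, where Igkv17-121 held 86.1% (95% Clopper-Pearson interval 80.1 to 90.9) and Ighv6-3 led the heavy V rows. Igkv1-110 itself ranged from 0 to 293 CPM over the libraries. Its 2 highest libraries were WT CCR6-CD69- replicate 4 with 293 CPM and replicate 1 with 246 CPM.

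No immunoglobulin row passed the threshold in any of the 9 planned comparisons with edgeR. Of the 11 tested rows, 2, 0 and 2 had an unadjusted p under 0.05 in WT (CCR6+CD69+ against CCR6-CD69-, CCR6+CD69+ against circulating, CCR6-CD69- against circulating), 1, 0 and 3 in cKO mice in the same order, and 0, 4 and 1 for cKO against WT in CCR6+CD69+, CCR6-CD69- and circulating cells. The share of all genes under that unadjusted limit is not given here, so nothing is read from these counts. At the adjusted threshold edgeR called 0.295%, 1.18% and 0.162% of all tested genes in WT and 0.457%, 1.53% and 0.310% in cKO mice. In each genotype comparison it called 0%. DESeq2 called 1 row, Ighg3, in each of 4 of these comparisons and none in the other 5. Averaged over populations, edgeR called none of the 11 for cKO against WT, where 0.118% of all genes were called. Of the 11, 3 had an unadjusted p under 0.05 there, and nothing is read from that count either. For the 3 differences between genotypes edgeR called none (0% of all genes).

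The median log2 fold change of the 11 tested rows is given beside that of all genes as a description, since a row could pass the filter through the group in which it was high. In WT mice it was -2.66 for CCR6+CD69+ against CCR6-CD69- cells (all genes -0.02) and 2.83 for CCR6-CD69- against circulating cells (all genes 0.12). In cKO mice the same comparisons gave -0.69 (all genes 0.26) and -0.81 (all genes -0.26). For cKO against WT it was -2.74 in CCR6-CD69- cells (all genes -0.31).

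In WT mice 3 of the 11 rows were lower in every CCR6+CD69+ than in any CCR6-CD69- library (Ighg3, Ighv1-64 and Ighv1-9; 5.96% of all tested genes did not overlap), and 4 were higher in every CCR6-CD69- than in any circulating library (Ighg3, Ighv1-26, Ighv1-9 and Iglc2; 6.11%). In cKO mice 1 row, Ighg3, did not overlap between the lung populations (4.53%), and none did between CCR6-CD69- and circulating cells (2.08%). Ighv1-9 had to be separated in both WT comparisons, since it was tested through its WT CCR6-CD69- libraries, and its 0 in WT circulating replicate 2 has a limit of 8.41 CPM, above 2 of its WT CCR6-CD69- levels. The counts with it are therefore a description. No row was separated between CCR6+CD69+ and circulating cells in WT (12.1%) or cKO mice (7.77%).

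Rows annotated as pseudogenes mostly had no counts. Of 28 such rows, 2 had counts. Ighv1-14 had 70 counts, all in cKO CCR6-CD69- replicate 3, where it was 52.7 CPM. That library had 217 heavy V counts in all. Of the 50-base windows of Ighv1-14, 13.3% also occurred in another immunoglobulin gene. Ighv1-21-1 had 30 counts, 28 of them in WT CCR6-CD69- replicate 1. Of 40 V rows annotated as functional, 26 had counts. The 20 rows with counts that did not pass the filter on low counts had at most 573 counts over the 24 libraries (Ighv1-66). That is more than the 151 of Ighv1-9, a tested row, since the filter asks for a minimal level in enough libraries. Most counts of Ighv1-66 came from WT circulating replicate 4 with 148 CPM and WT CCR6-CD69- replicate 4 with 70.4 CPM.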

How the data were processed

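For 24 libraries of polyA RNA the authors deposited raw counts, 1 row for each gene symbol. FastQC, STAR, Salmon and mm39 are named in the submitters' processing notes without versions or roles, so which tool made the counts is not given in the sources used here. The 73 members were taken by symbol. Members and gene lists were chosen with earlier results of these data known. Tests used edgeR 4.0.16 in R 4.3.3 (TMM scaling, filterByExpr by group, robust quasi-likelihood F-test, terms for group and batch, 6779 genes), with Benjamini-Hochberg adjustment over all genes and a threshold of 0.05. The common dispersion was 1.20. The script was tested on simulated data. The 9 planned comparisons were the population pairs within each genotype and the genotype effect within each population. The 4 averaged comparisons, 3 genotype differences, the batch comparison and the exact permutation test of Ighg3 were added after the data were seen. The averaged comparisons give genotypes or populations equal weight. CPM are counts over the library total, without scaling. V shares used libraries with at least 50 counts in the rows of a chain. Intervals (Clopper-Pearson, 95%) and limits of 3 counts cover counting error only. The exact permutation test used SciPy 1.17.1 and a pseudocount of 1, and sequences were aligned with Biopython 1.88. Some listed genes are not reported here. The 20 planned tests of isotype and lambda shares were not run because they need rows not analysed here. Named rows are the constant rows, called members, and the V rows leading a library or the summed use of a chain; Ighv1-9, Iglv2, Iglv3, Ighv1-14, Ighv1-21-1 and Ighv1-66 were added after their values were seen. Alternatives were relative log expression factors, DESeq2 1.42.0, other filters, scaling without immunoglobulin rows, the replicate number as a block, single batches and leaving out libraries.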

Additional observations from a re-analysis of the deposited data

Results flagged for a closer look

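Within single groups of 4, 1 library often stood apart from the other 3: of 42 groups looked at, 13 had a highest library whose gap to the next was over 0.829 of the range. For normally distributed values chance gives about 1 in 20. The CPM and shares used here are skewed, with many values of 0, and the share of all counts contains the other rows. The 13 are therefore not read as an excess over chance. Each such library was the highest of its group. For Iglc1 these were replicate 1 of all WT groups: CCR6+CD69+ with 219.8 CPM (next 23.8), CCR6-CD69- with 50.3 (next 2.54) and circulating with 6.19 (next 0). For Ighv1-64 they were WT CCR6-CD69- replicate 4 with 841.6 CPM (next 150.1), cKO CCR6+CD69+ replicate 1 with 72.9 (next 3.84) and cKO circulating replicate 1 with 190.7 (next 5.22).

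For Ighv1-19 they were WT CCR6+CD69+ replicate 4 with 84.6 CPM (next 13.1), WT circulating replicate 4 with 553 (next 86.0), cKO CCR6-CD69- replicate 3 with 104 (next 10.1) and cKO circulating replicate 1 with 163 (next 5.22). For Igkv1-110 it was cKO circulating replicate 4 with 163 CPM (next 11.5). The share of all counts in immunoglobulin rows stood apart in WT circulating replicate 4 with 0.138% (next 0.0286%) and cKO circulating replicate 1 with 0.0643% (next 0.0267%).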

How the results depend on the processing

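Under settings other than leaving out 1 library, 170 counts of called rows stayed within 1.5 times and 13 moved. DESeq2 called 1 row (Ighg3) in WT CCR6+CD69+ against CCR6-CD69-, WT CCR6-CD69- against circulating and the same cKO pairs, where edgeR called 0, and 1 (Iglv2) for cKO against WT over all populations. With no filter, edgeR called 1 row (Ighg3) in both of those WT comparisons and 1 (Ighv1-64) for cKO against WT in CCR6-CD69- cells. In batch 1 alone it called 0 rows in the averaged comparisons, where the Ighg3 log2 fold changes were -1.86 and 2.52. In batch 2 alone it called 1 (Ighv1-64) for cKO against WT over all populations. Without the 2 libraries under 500000 counts it called 1 (Ighg3) in WT CCR6+CD69+ against CCR6-CD69- cells and 6 rows between batches. The cause of these changes was not tested. The genotype difference of the Ighg3 lung contrast turned negative with relative log expression factors (-0.28) and with DESeq2 (-0.28), and ran from -0.081 to 1.11 with 1 library left out, its sign turning without WT CCR6-CD69- replicate 4, cKO CCR6+CD69+ replicate 1 (-0.011) or cKO CCR6-CD69- replicate 1 (-0.0019). With 1 library left out, the averaged Ighg3 log2 fold changes ran from -3.26 to -2.67 (edgeR adjusted p 0.00118 to 0.0159) and from 2.24 to 3.40 (edgeR adjusted p 0.000664 to 0.0428). Counts of called rows did not change then, except between batches (2 to 5). The labels do not say whether a replicate number marks an animal, and the numbers were not taken to pair libraries. Within a genotype the numbers in the library names recur in each population, and they differ between WT and cKO libraries. With group means removed, same-numbered libraries correlated by 0.113 to 0.252 in WT (12 of 12 pairs over 0.1) and 0.010 to 0.154 in cKO mice (10 of 12) over 6027 genes; with batch means also removed, by -0.025 to 0.103. With the replicate number as a block the averaged Ighg3 values were -2.85 and 2.74 (edgeR adjusted p 0.00595 and 0.00848), and no call or count of called rows changed. This block joined WT and cKO libraries of the same replicate number, whose library names carry different numbers, so it is no check of pairing within a genotype. In 4 of 24 libraries there were under 50 heavy V counts, too few for V shares.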
